A study of Mus musculus with 6 samples.

Results

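The genes described here are 43 genes of hepatic stellate cells and the extracellular matrix, measured by RNA-seq in livers of wild-type (WT) mice and of mice lacking the p75 neurotrophin receptor (p75NTR KO, KO below). They were chosen by name for their roles and were found in the count table by their Ensembl IDs, matched to GENCODE symbols of the mouse genome build GRCm38. All 43 were among the 49671 genes of the table. The 6 libraries came from bulk liver tissue of 3 WT mice (replicates 1, 2 and 3) and 3 homozygous KO mice (replicates 1, 2 and 4), all aged 6 months and on a standard diet. Both genotypes carry the strain label B6.1129S4-Ngfr/J, a line of The Jackson Laboratory that was bred in the laboratory to give WT and KO animals. The deletion was carried in every cell of the body, and bulk tissue does not separate stellate cells from the other liver cells.

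Hepatic stellate cells lie between hepatocytes and the sinusoidal endothelium and store vitamin A in the quiet state. When activated they turn into myofibroblasts, which express smooth muscle actin and secrete fibrillar collagens, proteoglycans and enzymes that crosslink the matrix, and they respond to platelet-derived growth factor and TGF-beta. Matrix is removed by matrix metalloproteinases, which are held back by tissue inhibitors (TIMPs). p75NTR, encoded by Ngfr, is itself a receptor of stellate cells in liver.

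The libraries held 27107209 to 32664149 counts each. Ngfr (chr11:95568818-95587735, minus strand) was counted 133, 144 and 78 times in the WT libraries (replicates 1, 2 and 3) and 53, 27 and 47 times in the KO libraries (replicates 1, 2 and 4). Every KO library was below every WT library, and counts were still present in each of them. For Ngfr the log2 fold change of KO against WT was -1.51 (standard error 0.34), with an adjusted p of 0.257 in edgeR's quasi-likelihood test and of 0.00606 in DESeq2. Without KO replicate 4 it was -1.64 (0.38, edgeR adjusted p = 0.112, DESeq2 adjusted p = 0.00382). The library labelled KO replicate 4 stood apart from the others. It held 2645 counts of the Y-linked gene Ddx3y against 0 to 2 in the other libraries, and 16 counts of Xist, the RNA that silences an X chromosome in females, against 6599 to 9554. It also lay at 64.6 on the first principal component of all tested genes, where the others lay between -18.4 and -9.28. Its Ddx3y and Xist counts were those of male tissue, and the counts of the other libraries those of female tissue. No source used here names the sex of the mice. By these counts the KO group held both sexes and the WT group only females. Sex and any other trait of that animal cannot be told apart in that library. The log2 fold changes of single genes are given below with and without it.

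The levels of the 43 genes spanned a wide range when expressed per length, as CPM per kb (CPM is a gene's count scaled to a common library size after TMM normalization, here divided by the length of its exons in kb). Col18a1, the alpha chain of collagen XVIII, had the highest mean over the 6 libraries at 150 CPM per kb. Fn1, fibronectin, followed at 118 CPM per kb. Hepatocytes are known to make both proteins, so in bulk liver these 2 are not specific to stellate cells. Next came the small proteoglycans Dcn (decorin) at 34.1 and Bgn (biglycan) at 18.3 CPM per kb, then Sparc at 14.6, the pericyte regulator Rgs5 at 12.6, the membrane-bound metalloproteinase Mmp14 at 9.97 and the fibril-associated collagen gene Col14a1 at 7.84 CPM per kb. The transcripts of collagen I were near the middle of the order, with a mean of 1.41 CPM per kb for Col1a2 and 1.39 for Col1a1. The lysyl oxidase gene Lox was the lowest, at 0.0704 CPM per kb.

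**Figure D1:**
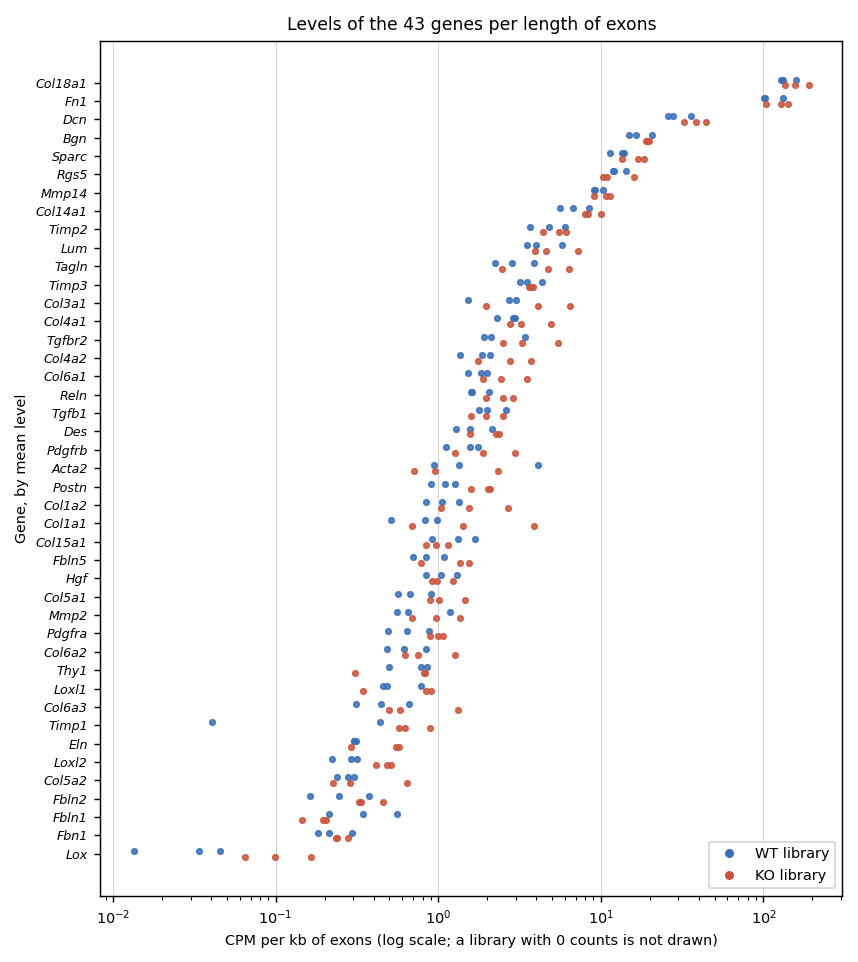
Level of each of the 43 genes in CPM per kb of exons on a log axis, ordered by the mean over 6 libraries; each point is 1 library (blue WT, red KO). Col18a1 and Fn1 lie above 100 CPM per kb in every library, and Lox is the lowest gene.

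KO was compared with WT to see how these genes differed when p75NTR was missing. Most of the genes lay higher in KO, by little, and single differences rarely exceeded the spread between libraries. Lox lay below the filter on low counts, and 42 genes were tested. Of these, 35 (83.3%) had a positive log2 fold change, against 49.8% of the 13773 genes tested. Their median log2 fold change was 0.40, while that of all tested genes was -0.0012. None of the 42 had an adjusted p under 0.05 in edgeR, and the same fit called 0.0% of all tested genes. At an unadjusted p under 0.05 edgeR gave 9 of 42 genes as higher in KO (21.4%, against 3.7% of all tested genes) and 1 as lower (2.38%, against 3.48%). DESeq2, the tool of the original analysis, called 1 of 43, Postn, which was higher in KO (1.06% of 14923 genes were called). The lowest KO library exceeded the highest WT library in 4 of the 42 tested genes, or 9.52%, against 6.02% of all tested genes. For 1 gene, Fbln1, the order was the opposite, 2.38% against 6.36%. With 3 libraries per group an exact permutation test cannot give a p under 0.1.

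The counts at an unadjusted p under 0.05 and the size of the median depended on single libraries. KO replicate 4 was the highest of the 6 libraries in 24 of the 42 tested genes, and WT replicate 2 was the lowest in 24. Relative to the WT mean, the median log2 level of the 42 genes was 0.23, -0.30 and -0.02 in WT replicates 1, 2 and 3. It was 0.07, 0.29 and 0.55 in KO replicates 1, 2 and 4, so KO replicate 1 lay below WT replicate 1 and the groups overlapped. Over all tested genes this median stayed between -0.0239 and 0.0049 in every library. When KO replicate 4 was left out, 36 of 42 genes (85.7%, against 49.3% of all 14102 tested) had a positive sign, but the median was 0.22. In that fit edgeR called none of the 42 at an adjusted p under 0.05 (0.808% of all genes), and at an unadjusted p under 0.05 it gave 4 as higher (9.52%, against 5.64%) and 1 as lower (2.38%, against 6.5%). DESeq2 without that library called 1 of the 41 genes that received an adjusted p, again Postn (3.01% of all genes). Leaving out WT replicate 2 in place of it gave 1 gene as higher and 2 as lower at an unadjusted p under 0.05 (6.98% in all, against 4.73% of all genes) and a median of 0.27. Of the 43 genes tested in that fit, 34 were positive (79.1%, against 49.7% of all genes). With both WT replicate 2 and KO replicate 4 left out, a choice made after the values were seen, the median was 0.09 and 28 of 42 genes were positive, 66.7% against 50.4% of all genes.

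**Figure D2:**
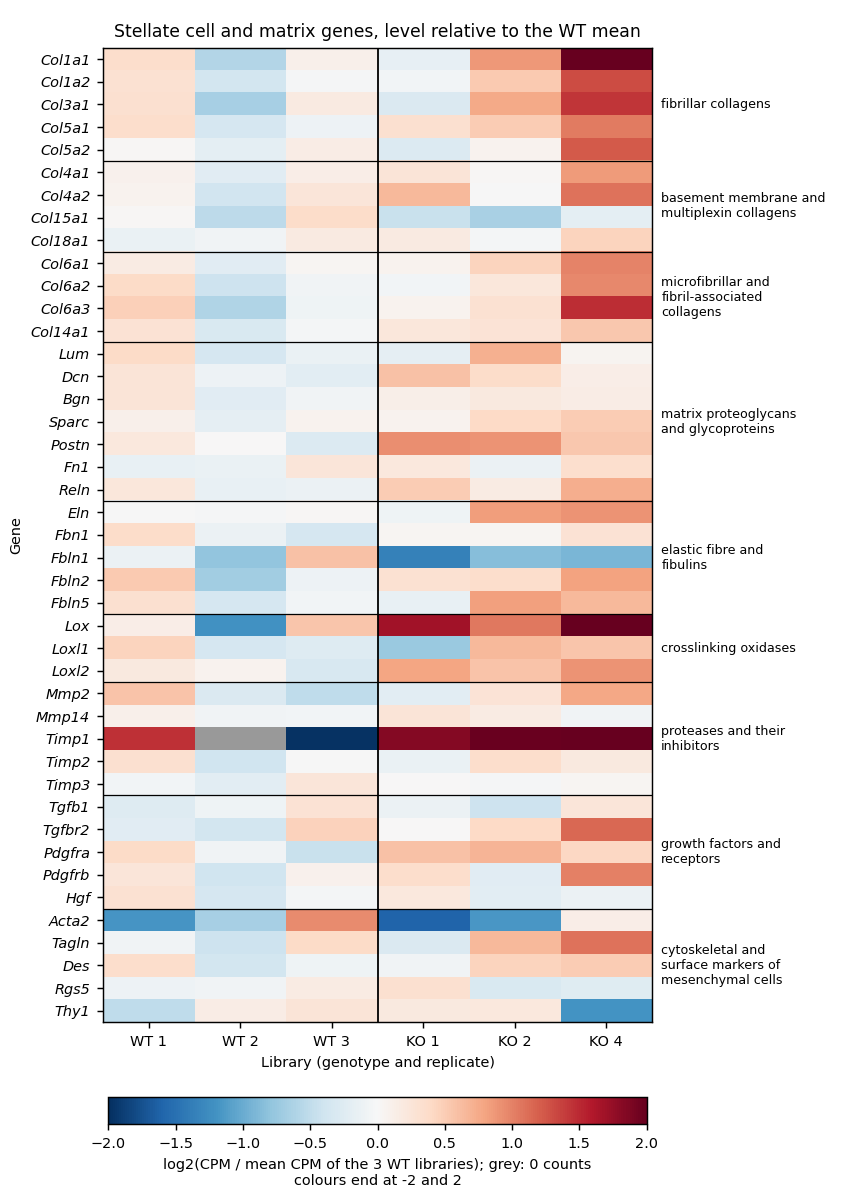
Level of each gene in each library as log2 of its CPM over the mean of the 3 WT libraries (colour, ending at -2 and 2; grey, 0 counts), in groups of related role. KO replicate 4 is the reddest column, most of all in the fibrillar collagens, and WT replicate 2 the bluest.

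The 5 fibrillar collagen chains, which form the tensile fibres of scar tissue, had log2 fold changes of 0.49 to 1.36 (median 0.70), all positive, and 2 had an unadjusted p under 0.05. Without KO replicate 4 their median was 0.34, 4 of 5 were positive and none had a p under 0.05. Col1a1 (chr11:94936224-94953042, plus strand) encodes the major chain of collagen I. It measured 6.46, 3.37 and 5.43 CPM in WT replicates 1, 2 and 3, and 4.53, 9.30 and 25.5 CPM in KO replicates 1, 2 and 4. KO replicate 4 was far above the rest, and KO replicate 1 lay within the WT range. For Col1a1 the log2 fold change was 1.36 (standard error 0.56, edgeR adjusted p = 0.690) with all libraries and 0.45 (0.35, adjusted p = 0.675) without KO replicate 4. Collagen I joins chains of Col1a1 and Col1a2, and the ratio of their counts per kb was 0.739, 0.614 and 0.780 in WT and 0.669, 0.918 and 1.45 in KO replicates 1, 2 and 4. KO replicate 4 was the only library in which Col1a1 exceeded Col1a2 per kb. That order rests on the lengths of all annotated exons, 6.56 kb for Col1a1 and 12.4 kb for Col1a2. In raw counts Col1a2 was the higher there too, at 967 against 743.

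Col5a1 (chr2:27886425-28039514, plus strand), a chain of collagen V that starts and limits fibril growth, had 7.70, 4.82 and 5.65 CPM in WT. In KO it had 7.57, 8.62 and 12.4 CPM, and its lowest KO value lay just under its highest WT value. For Col5a1 the log2 fold change was 0.65 (standard error 0.25, edgeR adjusted p = 0.642), and 0.42 (0.23, adjusted p = 0.526) without KO replicate 4. The other 3 chains, Col1a2, Col3a1 and Col5a2, had log2 fold changes of 0.70, 0.79 and 0.49 with overlapping groups. Without KO replicate 4 these became 0.27, 0.34 and -0.08. A call was absent for each of them in edgeR and in DESeq2.

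Promoter windows from RefSeq (build GRCm38.p6), from 250 bases before to 50 after a start site, matched 29 of the 43 genes. Those of Col3a1 and Postn are shown because they were the 2 that held the TATA motif TATAAA, searched on both strands in the window whose start was nearest the GENCODE gene start. The motif, in capitals, began at position -117 in Col3a1 and at position -26 in Postn, counted from the start site at 1.
Col3a1 (chr1:45311288-45311587, plus strand): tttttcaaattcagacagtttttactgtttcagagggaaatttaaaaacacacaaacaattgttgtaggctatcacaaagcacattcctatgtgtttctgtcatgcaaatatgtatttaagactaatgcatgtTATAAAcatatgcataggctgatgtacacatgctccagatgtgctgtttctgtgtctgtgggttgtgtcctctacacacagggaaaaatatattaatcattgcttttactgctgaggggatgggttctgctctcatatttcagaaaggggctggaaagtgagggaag
Postn (chr3:54360857-54361156, plus strand): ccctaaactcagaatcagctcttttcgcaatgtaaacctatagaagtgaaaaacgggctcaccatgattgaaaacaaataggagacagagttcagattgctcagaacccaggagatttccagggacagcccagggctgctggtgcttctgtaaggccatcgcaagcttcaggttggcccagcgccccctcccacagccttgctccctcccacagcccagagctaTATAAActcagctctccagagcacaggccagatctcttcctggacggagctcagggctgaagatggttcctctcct
TATAAA occurred in 2 of the 29 genes (6.90%), against 13.6% of the 32851 windows of 300 bases in the same table. The GC box core GGGCGG on either strand occurred in 17 of 29 (58.6%, against 35.7% of windows), and CCAAT on either strand in 11 (37.9%, against 37.4%). A match describes the letters of a window and does not show that a factor binds there.

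Among the collagens of basement membranes and the multiplexins, the log2 fold changes were -0.41 to 0.64 (median 0.31), with 3 of 4 positive, and the median was 0.11 without KO replicate 4. Col4a2 (chr8:11312805-11449287, plus strand) encodes a chain of collagen IV, the network of basement membranes. It measured 12.2, 8.97 and 13.7 CPM in WT and 18.2, 11.6 and 24.7 CPM in KO replicates 1, 2 and 4. KO replicate 2 lay within the WT range and the other KO libraries above it. For Col4a2 the log2 fold change was 0.64 (standard error 0.27, edgeR adjusted p = 0.690), and 0.37 (0.23, adjusted p = 0.597) without KO replicate 4. Its partner Col4a1 had a log2 fold change of 0.42 with a standard error of 0.21 (edgeR adjusted p = 0.783). It was 0.15 (0.15, adjusted p = 0.762) without KO replicate 4. Both chains are assembled into 1 protomer, and the ratio of Col4a1 to Col4a2 counts per kb was 1.55, 1.70 and 1.43 in WT and 1.17, 1.57 and 1.31 in KO. These ratios overlapped between the groups.

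The Col4a1 and Col4a2 genes lie head to head on opposite strands. Their first exons overlap by 22 bases, and the RefSeq windows of both starts share 78 bases (chr8:11312777-11312854). The windows are shown, each 5′ to 3′ on its own gene's strand, because the pair is read from the same stretch of DNA. Capitals mark CCAAT and GGGCGG on either strand.
Col4a1 (chr8:11312777-11313076, minus strand): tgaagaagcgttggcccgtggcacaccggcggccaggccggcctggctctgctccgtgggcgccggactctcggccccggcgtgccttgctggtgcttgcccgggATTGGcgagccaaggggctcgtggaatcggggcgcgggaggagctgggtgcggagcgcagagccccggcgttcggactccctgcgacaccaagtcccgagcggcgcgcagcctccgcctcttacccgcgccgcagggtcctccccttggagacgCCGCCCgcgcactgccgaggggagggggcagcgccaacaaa
Col4a2 (chr8:11312555-11312854, plus strand): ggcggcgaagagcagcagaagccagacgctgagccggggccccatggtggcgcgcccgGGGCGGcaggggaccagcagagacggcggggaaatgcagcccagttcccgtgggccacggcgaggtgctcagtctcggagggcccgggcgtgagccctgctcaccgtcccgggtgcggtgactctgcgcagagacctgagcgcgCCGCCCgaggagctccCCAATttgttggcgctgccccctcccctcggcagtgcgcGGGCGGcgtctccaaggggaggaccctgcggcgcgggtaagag
In the Col4a2 window CCAAT began at position -32 and GGGCGG occurred 3 times, and in the Col4a1 window CCAAT and GGGCGG each occurred 1 time. Whether reads were counted by strand is unknown here, and the overlap of 22 bases is short beside either gene.

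Col18a1 (chr10:77052178-77166548, minus strand), a multiplexin whose C-terminal fragment is endostatin, had 895, 928 and 1110 CPM in WT and 1103, 947 and 1332 CPM in KO. The groups overlapped, with KO replicate 4 the highest. For Col18a1 the log2 fold change was 0.21 (standard error 0.15, edgeR adjusted p = 0.890), and 0.07 without KO replicate 4. Col15a1, the other multiplexin, pointed the other way at -0.41 (standard error 0.25, edgeR adjusted p = 0.836), and at -0.53 without KO replicate 4. Its groups overlapped as well.

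The microfibrillar collagen VI chains and Col14a1 had log2 fold changes of 0.35 to 0.75 (median 0.50), all 4 positive, and 0.22 as the median without KO replicate 4. Col6a1 (chr10:76708792-76726168, minus strand), a chain of the beaded filaments around cells, had 8.74, 6.68 and 8.01 CPM in WT and 8.23, 10.7 and 15.5 CPM in KO. KO replicate 1 lay within the WT range. For Col6a1 the log2 fold change was 0.55 (standard error 0.24, edgeR adjusted p = 0.695), and 0.28 (0.20, adjusted p = 0.628) without KO replicate 4. Col14a1 (chr15:55307750-55520803, plus strand) binds the surface of collagen fibrils and had 58.9, 39.3 and 47.0 CPM in WT and 56.4, 58.4 and 70.0 CPM in KO. WT replicate 1 reached into the KO range. For Col14a1 the log2 fold change was 0.35 (standard error 0.16, edgeR adjusted p = 0.747), and 0.25 without KO replicate 4. Col6a2 and Col6a3 had log2 fold changes of 0.44 and 0.75 with overlapping groups, and 0.09 and 0.20 without KO replicate 4.

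Postn had the smallest p of the 42 genes. Postn (chr3:54361109-54391037, plus strand) encodes periostin, a matrix protein that binds collagen and integrins and is made by activated fibroblasts. It measured 11.0, 9.51 and 7.86 CPM in WT replicates 1, 2 and 3, and 18.1, 17.6 and 13.8 CPM in KO replicates 1, 2 and 4. All 3 KO libraries lay above all 3 WT libraries, and KO replicate 4 was the lowest of the KO libraries. The mean was 9.46 ± 1.57 CPM in WT and 16.5 ± 2.37 CPM in KO (each with its SD, n = 3). For Postn edgeR gave a log2 fold change of 0.80 with a standard error of 0.17 (adjusted p = 0.234), and 0.92 (0.17, adjusted p = 0.0516) without KO replicate 4. By DESeq2 Postn rose by 0.81 on the log2 scale (standard error 0.21, adjusted p = 0.0133), and by 0.92 (adjusted p = 7.6e-04) without KO replicate 4. Its call thus depended on the tool, and within edgeR on the filter and the design. With no filter on low counts edgeR called Postn (adjusted p = 0.0384), among 69 genes called higher and 67 lower of 23581. Under the replicate block edgeR called it as well (adjusted p = 0.0202), among 220 genes called higher and 248 lower of 13773. WT replicate 3 and KO replicate 4 share their number with no other library. That fit thus compared KO with WT within replicates 1 and 2 only.

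The other proteoglycans and glycoproteins were also higher in KO on average, all 7 of this group having positive log2 fold changes of 0.15 to 0.80 (median 0.34, with and without KO replicate 4). Dcn (chr10:97479609-97518143, plus strand) encodes decorin, which coats collagen fibrils and binds TGF-beta. Its levels were 208, 162 and 151 CPM in WT and 260, 223 and 190 CPM in KO. KO replicate 4 lay within the WT range, and the other KO libraries above it. For Dcn the log2 fold change was 0.37 (standard error 0.17, edgeR adjusted p = 0.721), and without KO replicate 4 it was larger, at 0.48 (0.15, adjusted p = 0.250). Reln (chr5:21884454-22344702, minus strand), reelin, is in liver a product of stellate cells. It had 48.7, 37.7 and 38.5 CPM in WT and 59.3, 46.7 and 68.7 CPM in KO. KO replicate 2 lay below WT replicate 1, and the other KO libraries lay above every WT library. For Reln the log2 fold change was 0.49 (standard error 0.17, edgeR adjusted p = 0.569), and 0.35 (0.15, adjusted p = 0.403) without KO replicate 4.

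Sparc (chr11:55394500-55423183, minus strand), a collagen-binding protein that aids fibril assembly, had 52.4, 43.0 and 51.4 CPM in WT and 51.3, 64.3 and 69.8 CPM in KO. KO replicate 1 lay within the WT range. For Sparc the log2 fold change was 0.34 (standard error 0.14, edgeR adjusted p = 0.691), and 0.25 (0.14, adjusted p = 0.548) without KO replicate 4. Bgn (chrX:73483602-73495933, plus strand), the proteoglycan biglycan, had 126, 90.7 and 101 CPM in WT and 115, 121 and 117 CPM in KO. The KO libraries were close together and inside the WT range, with a log2 fold change of 0.15 with a standard error of 0.14 (edgeR adjusted p = 0.906) and of 0.16 without KO replicate 4. Fn1 (chr1:71585520-71653200, minus strand) had 1177, 1191 and 1530 CPM in WT and 1503, 1203 and 1645 CPM in KO. These groups overlapped too, and for Fn1 the log2 fold change was 0.16 (standard error 0.16, edgeR adjusted p = 0.923), and 0.06 without KO replicate 4. Lum, the proteoglycan lumican, had a log2 fold change of 0.25, and 0.34 without KO replicate 4.

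**Figure D3:**
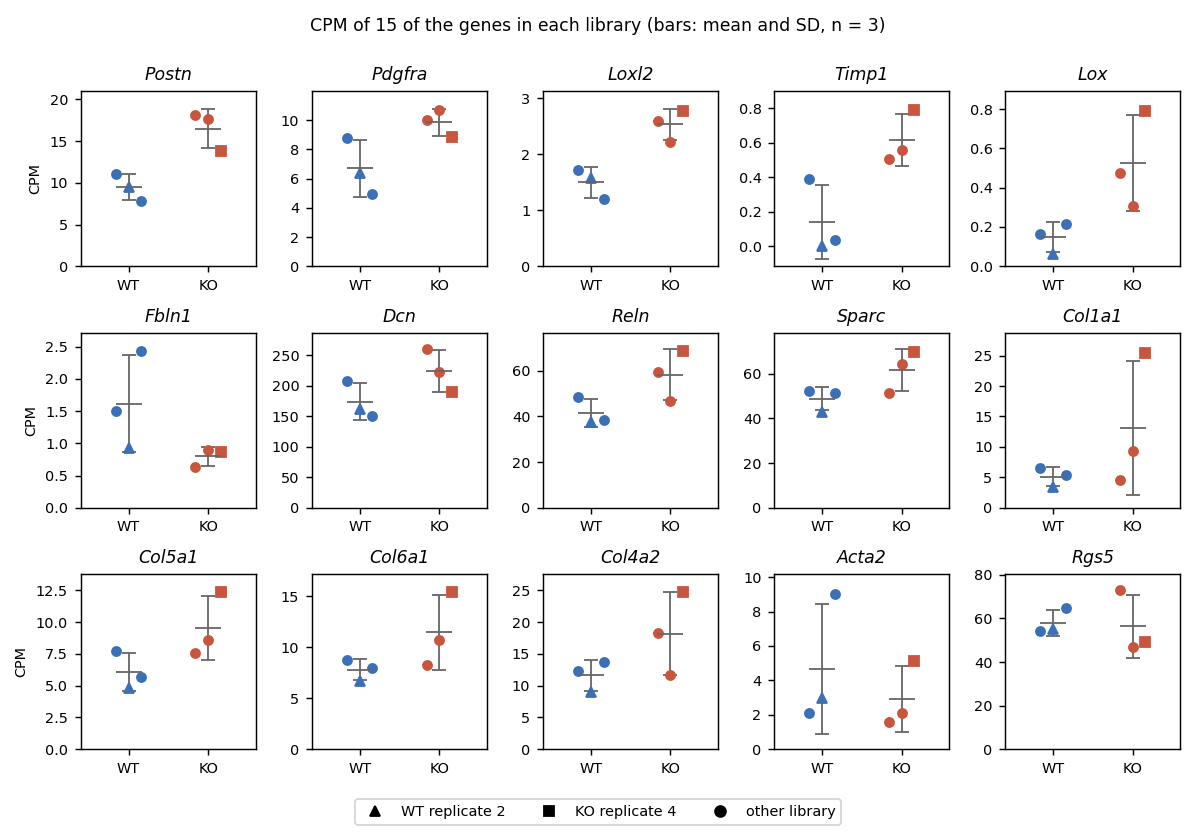
CPM of 15 of the genes in each library on linear axes that include 0; points are libraries (triangle, WT replicate 2; square, KO replicate 4), and bars give the mean and SD of 3 libraries. In Postn, Pdgfra, Loxl2, Timp1 and Lox every KO point is above every WT point, in Fbln1 every KO point is below, and in Col1a1 KO replicate 4 sits alone at 25.5 CPM.

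Of the genes for elastic fibres and fibulins, 4 of 5 had positive log2 fold changes (Eln, Fbn1, Fbln2 and Fbln5, from 0.12 to 0.62, and from 0.04 to 0.46 without KO replicate 4), with none at an unadjusted p under 0.05. The exception was Fbln1 (chr15:85205949-85286535, plus strand), fibulin 1, a glycoprotein of elastic fibres and basement membranes. It measured 1.49, 0.932 and 2.43 CPM in WT and 0.633, 0.896 and 0.857 CPM in KO, which corresponds to 20 to 67 counts per library. The highest KO library lay just under the lowest WT library. For Fbln1 the log2 fold change was -1.02 (standard error 0.42, edgeR adjusted p = 0.690), and -1.06 (0.50, adjusted p = 0.443) without KO replicate 4.

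Lysyl oxidases oxidise lysines of collagen and elastin so that fibres crosslink. Loxl2 (chr14:69609068-69695834, plus strand) had 1.72, 1.57 and 1.20 CPM in WT and 2.60, 2.23 and 2.78 CPM in KO. All KO libraries lay above all WT libraries. For Loxl2 the log2 fold change was 0.75 (standard error 0.27, edgeR adjusted p = 0.614), and 0.69 (0.32, adjusted p = 0.438) without KO replicate 4. Lox (chr18:52516067-52529867, minus strand), the founding enzyme of the family, had 5, 2 and 6 counts in WT and 15, 10 and 23 counts in KO. Its groups did not overlap either, but at this depth it failed the filter on low counts. For Lox edgeR with no filter gave 1.81 as log2 fold change (standard error 0.73, adjusted p = 0.618), and DESeq2 gave 1.84 (adjusted p = 0.638). In DESeq2 it was 1.42 without KO replicate 4, with no adjusted p. Filtered edgeR fits that left out 1 other library kept Lox in 4 cases, with values of 1.44 to 2.17 and no call. Loxl1 had overlapping groups and a log2 fold change of 0.27 (standard error 0.41), and 0.12 without KO replicate 4.

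Proteases and their inhibitors differed little apart from Timp1, the inhibitor that activated stellate cells secrete. Timp1 (chrX:20870166-20874735, plus strand) was counted 12, 0 and 1 times in the WT libraries, and 16, 18 and 23 times in the KO libraries, in order of replicate. Every KO library exceeded every WT library, at counts of 23 or fewer. For Timp1 the log2 fold change was 2.07 (standard error 0.91, edgeR adjusted p = 0.712), and 1.86 (1.02, adjusted p = 0.528) without KO replicate 4. WT replicate 1 held nearly all WT counts, and the value without it was 4.87. Mmp14 (chr14:54431612-54445364, plus strand), which cleaves collagen at the cell surface and activates Mmp2, had 61.3, 54.4 and 55.1 CPM in WT and 67.9, 63.8 and 54.0 CPM in KO. KO replicate 4 was the lowest library and the other KO libraries were the highest. For Mmp14 the log2 fold change was 0.12 (standard error 0.12, edgeR adjusted p = 0.923), and 0.22 (0.11, adjusted p = 0.481) without KO replicate 4. Mmp2, Timp2 and Timp3 had log2 fold changes of 0.33, 0.15 and 0.01, each with overlapping groups, and 0.06, 0.13 and -0.0021 without KO replicate 4. Timp3 shares 1733 exonic bases with Syn3 on the other strand, so its counts may be affected if strand was ignored in counting. Syn3 held 169 counts over all libraries.

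Among growth factors and their receptors, Pdgfra stood out by groups that did not overlap. Pdgfra (chr5:75152292-75198215, plus strand) encodes the alpha receptor of platelet-derived growth factor, found on stellate cells and fibroblasts. It measured 8.77, 6.39 and 4.93 CPM in WT and 10.01, 10.73 and 8.88 CPM in KO. The lowest KO library, replicate 4, lay only just above WT replicate 1. For Pdgfra the log2 fold change was 0.56 (standard error 0.22, edgeR adjusted p = 0.670), and 0.63 (0.24, adjusted p = 0.337) without KO replicate 4. The beta receptor Pdgfrb, which drives stellate cell proliferation, had 0.47 as log2 fold change (standard error 0.31), and 0.10 without KO replicate 4. Tgfbr2, the TGF-beta receptor, had 0.59 (standard error 0.31), and 0.23 without that library. The ligands Tgfb1 and Hgf had values of -0.07 and -0.03, both smaller in size than their standard errors of 0.21. They were -0.25 (0.20) and 0.02 (0.23) without KO replicate 4.

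The cytoskeletal and surface markers of mesenchymal cells had log2 fold changes of -0.68 to 0.59 (median -0.04), 3 of 5 being negative. Without KO replicate 4 the direction turned, with 4 of 5 positive and a median of 0.22. Acta2 (chr19:34241090-34255590, minus strand) encodes smooth muscle actin, the classical marker of activated stellate cells. Its levels were 2.08, 2.96 and 9.02 CPM in WT and 1.55, 2.10 and 5.11 CPM in KO. WT replicate 3 was the highest and KO replicate 4 the next, and the groups overlapped. For Acta2 the log2 fold change was -0.68 (standard error 0.61, edgeR adjusted p = 0.909), and -1.34 (0.58, adjusted p = 0.408) without KO replicate 4. It was 0.21 without WT replicate 3. Myh11, the myosin of vascular smooth muscle, was also highest in WT replicate 3, at 6.52 CPM against 1.61 to 3.77 CPM in the other libraries. The part of vessel wall tissue in the Acta2 values was not tested.

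Rgs5 (chr1:169655501-169695813, plus strand), a regulator of G protein signalling in pericytes, had 54.2, 55.1 and 65.0 CPM in WT and 72.9, 46.9 and 49.3 CPM in KO. KO libraries were both the highest and the lowest. For Rgs5 the log2 fold change was -0.04 (standard error 0.18, edgeR adjusted p = 0.986), and 0.05 without KO replicate 4, so it had no stable direction. Tagln, Des and Thy1 had log2 fold changes of 0.59, 0.32 and -0.12 with overlapping groups. These were 0.27, 0.22 and 0.22 without KO replicate 4, so that of Thy1 turned. Tagln shares 1241 exonic bases with Gm48529 and 108 with the protein-coding gene Pcsk7, both on the other strand, and may share reads with them. Gm48529 held 446 counts and Pcsk7 6298, summed over all libraries.

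**Figure D4:**
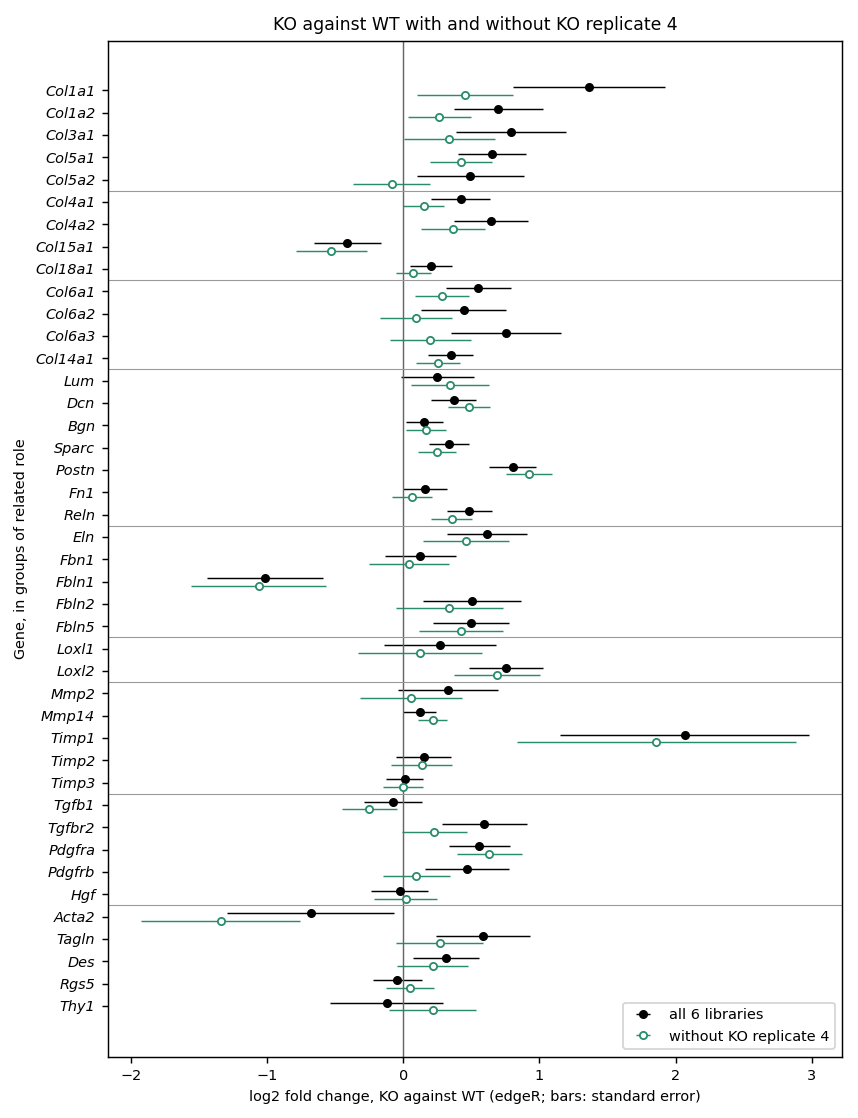
edgeR log2 fold change of KO against WT for the 42 tested genes in groups of related role, with all 6 libraries (black) and without KO replicate 4 (green, open); bars are standard errors. The collagens other than Col15a1 lie closer to 0 without KO replicate 4, while Postn, Pdgfra and Loxl2 are at 0.56 or above in both fits.

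Markers of quiet stellate cells were centred near 0 with all 6 libraries, and leaned slightly higher in KO without KO replicate 4. A list of 20 such genes, none of them among the 43, had a median log2 fold change of 0.02, with 11 positive and 9 negative. Without KO replicate 4 the median was 0.11, with 14 positive and 6 negative (49.3% of all tested genes were positive). In that fit edgeR gave 2 as higher, Ecm1 (0.36) and Colec10 (0.44), and 1, Ngfr, as lower at an unadjusted p under 0.05. The shares of all genes were 5.64% and 6.5%. For Ecm1 and Colec10 the edgeR adjusted p was 0.341 each. Only Ngfr, the deleted gene, was called in this list, by DESeq2 (1.06% of all genes were called). Lrat, which esterifies vitamin A for storage and defines the cell type in liver, had 24.9, 10.6 and 28.2 CPM in WT and 23.1, 20.5 and 19.8 CPM in KO. WT replicate 2 was the lowest library for Lrat as it was for most of the 43 genes. Relative to the WT mean, the median log2 level of the 20 markers was 0.23, -0.14 and -0.14 in WT and 0.14, 0.08 and -0.14 in KO replicates 1, 2 and 4. In KO replicate 4 the median of these markers was below the WT mean and that of the 42 tested matrix genes above it. In bulk tissue, fewer cells of a type and less RNA per cell cannot be told apart.

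Markers of other cell types varied between libraries as well. The 8 cholangiocyte markers summed to 81.1, 49.0 and 43.6 CPM in WT and 45.3, 87.9 and 95.7 CPM in KO replicates 1, 2 and 4. WT replicate 1 and KO replicate 2 were also the libraries, next to KO replicate 4, in which the 43 genes lay highest. Of the 7 cholangiocyte markers tested, 6 had a positive log2 fold change, against 49.8% of all tested genes. Their median was 0.48, and 0.30 without KO replicate 4, beside 0.40 and 0.22 for the 42 tested matrix genes. At an unadjusted p under 0.05 edgeR gave 1 of the 7 as higher, against 3.7% of all tested genes. None of the 8 was called. Krt19, a defining keratin of bile ducts, was highest in KO replicate 2 at 2.69 CPM and lowest in WT replicate 3 at 0.797 CPM. The 8 smooth muscle markers summed to 74.4, 63.9 and 100.1 CPM in WT and 84.8, 66.2 and 87.3 CPM in KO, with no call. Mesothelial markers were low throughout, with sums of 1.93 to 9.84 CPM over 7 genes, and Muc16 was at 0 in WT replicates 2 and 3 and KO replicate 4. Sinusoidal endothelial markers leaned lower in KO, 11 of 12 having negative values and 1 a positive one, against 49.8% positive of all tested genes. Their median was -0.19, and -0.29 without KO replicate 4, again with no call. Relative to the WT mean, their median log2 level was -0.32, -0.07 and 0.33 in WT and -0.19, -0.40 and -0.02 in KO replicates 1, 2 and 4. WT replicate 3 was thus the highest, and WT replicate 1 lay within the KO range. Kupffer cell markers summed to 284 to 575 CPM and were highest in WT replicate 3. The part of other cell types in the values of the 43 genes was not tested.

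**Figure D5:**
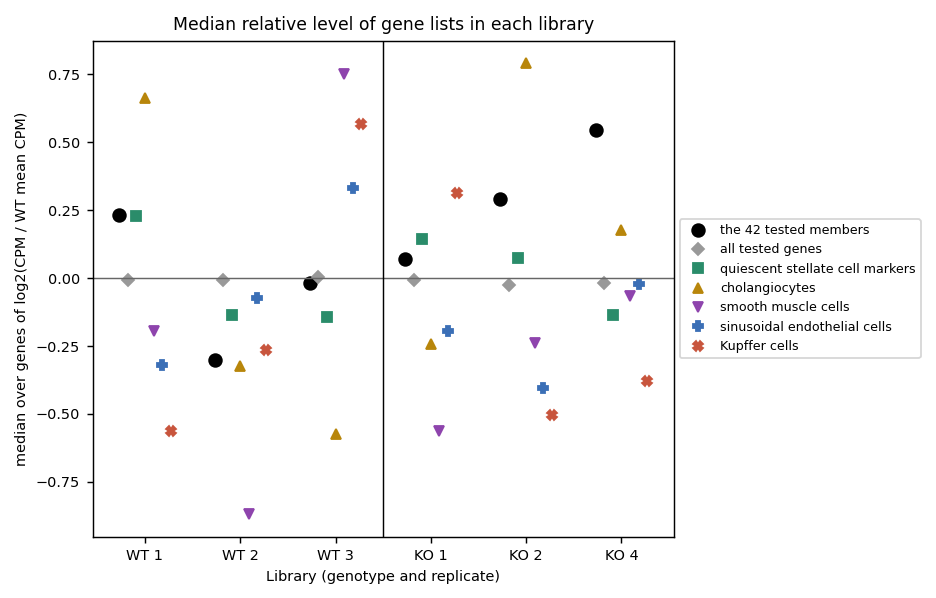
Median over genes of log2(CPM / WT mean) in each library, for the 42 tested genes (black), all tested genes (grey) and 5 lists of cell type markers. The black points run from -0.30 in WT replicate 2 to 0.55 in KO replicate 4, the grey ones stay near 0, and the cholangiocyte markers are highest in WT replicate 1 and KO replicate 2.

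Other genes of the matrix pathway, from lists that share no gene with the 43, gave few calls. Mmp12, the macrophage elastase, was called. It had 8, 8 and 7 counts in WT and 52, 55 and 207 counts in KO replicates 1, 2 and 4. All KO libraries lay far above all WT libraries. For Mmp12 the log2 fold change was 3.74 (standard error 0.68, edgeR adjusted p = 0.187), and it was called by DESeq2 (adjusted p = 4.2e-07) and by edgeR without KO replicate 4 (2.69, adjusted p = 0.0343). It was the only gene called in a list of 24 other matrix proteases and inhibitors, of which 19 were tested, with a median of 0.03 (0.10 without KO replicate 4). Of all genes, DESeq2 called 1.06%, and edgeR without KO replicate 4 called 0.808%. Of 23 genes for collagen processing and crosslinking, 22 were tested, with 11 positive and 11 negative values (10 and 12 without KO replicate 4) and no call. At an unadjusted p under 0.05 edgeR gave 2 as higher and 2 as lower, against 3.7% and 3.48% of all tested genes. Without KO replicate 4 it gave 0 and 1, against 5.64% and 6.5%. Groups did not overlap in 7 of the 22, in either direction, against 6.02% (higher in KO) and 6.36% (lower) of all tested genes. The chaperone gene Fkbp10, whose product helps fold procollagen, had a log2 fold change of 1.19 with a standard error of 0.39 (edgeR adjusted p = 0.540) and groups that did not overlap. It was 0.96 without KO replicate 4. P4ha2, a subunit of the prolyl hydroxylase of collagen, had -0.53 (standard error 0.18, edgeR adjusted p = 0.569), again without overlap, and the same value without KO replicate 4.

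Of 23 TGF-beta pathway genes, 22 were tested, 16 were positive, and the median was 0.12. In the fit without KO replicate 4, 10 were positive and the median was -0.02. Tgfbi, a matrix protein induced by TGF-beta, was higher in every KO library, with a log2 fold change of 0.30 (standard error 0.12, edgeR adjusted p = 0.690), also without KO replicate 4. Thbs1, thrombospondin 1, which activates latent TGF-beta, had 1.10 (standard error 0.50), and 0.39 without KO replicate 4. Of 9 ligands and partners of the PDGF and HGF receptors, none was called by edgeR or by DESeq2 on all libraries. Nrp1, a co-receptor, had 62.0, 56.6 and 81.3 CPM in WT and 40.0, 36.1 and 63.0 CPM in KO. KO replicate 4 lay within the WT range and the other KO libraries below it. For Nrp1 the log2 fold change was -0.52 (standard error 0.23, edgeR adjusted p = 0.695), and -0.80 (adjusted p = 0.0715) without KO replicate 4, where DESeq2 gave an adjusted p of 5.0e-04. Plaur, the urokinase receptor, had 0.88 (standard error 0.64), and 0.06 without that library.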

How the data were processed

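Bulk liver RNA of 3 WT and 3 KO mice was sequenced. The authors deposited 1 table of raw counts per gene. Per the labels and methods, polyadenylated RNA was made into directional libraries, sequenced as single-end reads of 75 bp, trimmed with Trimmomatic, aligned with STAR 2.5.0c to GRCm38 and counted with featureCounts. No source used here says if reads were counted by strand, so antisense partners may share reads.

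Total counts were 27107209 to 32664149 per library. KO and WT were compared with edgeR 4.0.16 (R 4.3.3): filterByExpr, TMM, glmQLFit and glmQLFTest, with Benjamini-Hochberg adjustment over the 13773 genes kept. Genes with an adjusted p under 0.05 were called. DESeq2 1.42.0 and limma 3.58.1 (voom) were alternatives, as were other scaling, filters, robust dispersions, each library left out and a replicate block. Fits were tested on simulated data. All libraries differed from each other beyond sampling noise. P-values set the difference between KO and WT against the spread between these samples within each genotype.

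The genes and lists were chosen with earlier results of these data known. Values per library are given for genes called, with an unadjusted p under 0.05, with groups that did not overlap, or among the 8 highest per length. In other lists, called genes were named, or else up to 2 with the smallest p. Some markers of cell types, Lrat among them, were named outside this rule.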

Additional observations from a re-analysis of the deposited data

How the results depend on the processing

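In edgeR no gene of the 42 was called, and leaving out each library in turn gave 0.0 calls each time. DESeq2, DESeq2 without KO replicate 4, no filter on low counts and the replicate block called 1.0 gene each, Postn, with adjusted p-values of 0.0133, 7.6e-04, 0.0384 and 0.0202. Over all genes the DESeq2 fits called 1.06% and 3.01%. The fit with no filter called 69 higher and 67 lower of 23581 genes, and the replicate block 220 and 248 of 13773. The median log2 fold change was 0.40, ranged from 0.22 to 0.54 over the libraries left out, and was 0.0862 without WT replicate 2 and KO replicate 4. The number of genes with an unadjusted p under 0.05 moved with the libraries: 9 higher and 1 lower as reported (23.8%, against 7.17% of all genes), 4 and 1 without KO replicate 4 (11.9%, against 12.1%), 1 and 2 without WT replicate 2 (6.98%, against 4.73%), 4 and 0 without WT replicate 3 (9.30%, against 7.86%), 12 and 0 without WT replicate 1 (27.9%, against 4.83%), 13 and 0 without KO replicate 1 (31.0%, against 6.15%), and 19 and 1 with no filter (46.5%, against 6.03%). The direction of Acta2 turned without WT replicate 3 (0.21), with values from -1.58 to 0.21 over the libraries left out. That of Rgs5 turned in DESeq2 without KO replicate 4 (0.0486), under the replicate block (0.0982), without KO replicate 2 (0.0732), KO replicate 4 (0.0480) or WT replicate 3 (0.0445), and without WT replicate 2 and KO replicate 4 (0.0201), with a lowest value of -0.27 without KO replicate 1. The cause of these changes was not tested. The remaining 19 genes given in full, Ngfr included, kept their direction in every alternative that gave a value.

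Replicate numbers 1 and 2 occur in both groups, and deviations of libraries sharing a number correlated at -0.124 and 0.0259, so the numbers were not taken as pairs. The replicate block compared KO with WT within replicates 1 and 2 only, as numbers 3 and 4 each occur in 1 group. It left 1 residual degree of freedom. Under it 6 genes were higher and 0 lower at an unadjusted p under 0.05 (14.3%, against 16.9% of all genes). The median was 0.24. It changed no other call of the 42 apart from Postn. Lox had no value in fits that dropped it for low counts. At 0 to 23 counts, Timp1 and Lox are limited by depth.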

Other observations

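Matrix genes outside the 43 added some values. Of 25 other collagen chains, 9 passed the filter, 6 with a positive log2 fold change, and 5 were at 0 in every library. Col5a3, a further chain of collagen V, had 9.65, 8.84 and 8.08 CPM in WT and 13.3, 11.0 and 38.6 CPM in KO replicates 1, 2 and 4. All KO libraries were above all WT libraries, and KO replicate 4 was far above the rest, as for Col1a1. In edgeR it had a log2 fold change of 1.24 with a standard error of 0.43 (adjusted p = 0.578), and 0.46 without KO replicate 4. Col20a1 had 0.585, 0.386 and 0.725 CPM in WT and 2.09, 1.61 and 0.549 CPM in KO. KO replicate 4 was here within the WT range, and the log2 fold change was 1.33, and 1.71 without it.

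The 15 laminin and basement membrane genes had a median log2 fold change of 0.16, and -0.04 without KO replicate 4. Lamb3, a laminin beta chain, had 10.2, 5.24 and 9.78 CPM in WT and 4.97, 4.61 and 4.29 CPM in KO, with every KO library below every WT library (edgeR log2 fold change -0.86, standard error 0.26, adjusted p = 0.515). Without KO replicate 4 it was -0.80. Lamb1 had 0.40 (standard error 0.18), and 0.33 without KO replicate 4. Of 24 other proteoglycans and glycoproteins, 19 were tested, and 11 were positive. Tnc, tenascin C, was higher in every KO library (1.69, standard error 0.62, edgeR adjusted p = 0.617), and 0.85 without KO replicate 4. Vtn, vitronectin, which hepatocytes secrete, was also higher in every KO library (0.26, standard error 0.10, edgeR adjusted p = 0.651), and 0.23 without KO replicate 4. Of 8 hepatocyte markers, Cps1, the first enzyme of the urea cycle, was called by DESeq2 (edgeR log2 fold change 0.86, and 0.89 without KO replicate 4, DESeq2 adjusted p = 2.1e-04). DESeq2 called 1.06% of all genes.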
